A study of Mus musculus with 26 samples.

Results

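The antibodies compared here are the IgG2 and the IgA heavy chains of the same 4 mouse spleens. A clonotype was a V gene, a J gene and the nucleotides of the junction, the stretch from the conserved cysteine to the conserved tryptophan around complementarity-determining region 3 (CDR3). Clonotypes listed under the constant gene IGHG2 formed one side, with 24330 clonotypes over the 4 replicates, and clonotypes listed under IGHA the other, with 66115, of 993128 spleen clonotypes of every isotype and 1674869 in the whole series. In replicates 1 to 4 IgG2 had 926, 17872, 1944 and 3588 clonotypes with 14338, 112144, 13745 and 22423 copies. IgA had 3427, 33515, 11670 and 17503 clonotypes with 49785, 415794, 130922 and 245211 copies. Replicate 2 was the most deeply sampled, replicate 1 had the fewest clonotypes, and IgA had more copies than IgG2 in each replicate.

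All mice were wild type (WT) and associated with Staphylococcus epidermidis, a commensal bacterium of skin. Both isotypes were read from the same RNA of each spleen, labelled as B cells, with 2 technical libraries per replicate. The series comprised 26 libraries of skin, spleen, lymph node and a positive control, of which 8 were spleen. The tissue is given by the library titles, since the tissue field reads ear skin throughout. The files hold heavy-chain sequences only, so the tissue could not be checked against marker genes, and the labels give no age or sex. IgG2 pools its subclasses, whose constant genes include Ighg2c (chromosome 12, 113287389 to 113288932, GRCm38) and Ighg2b (chromosome 12, 113304314 to 113307933). Igha lies at 113256204 to 113260236 of the same chromosome.

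B cells start with IgM and switch to IgG2 or IgA by joining the same rearranged V, D and J segments to another constant gene. IgG2 is the class typically formed in interferon-driven responses to viruses and bacteria, and IgA is the class secreted at mucosal surfaces, much of it against the gut flora. In germinal centres the enzyme activation-induced deaminase (AID) mutates the V segment, so that the number of V mismatches to the germline records how long a B cell line has been under mutation and selection.

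The V segments of the largest IGHV1-26 clonotypes show the main contrast base by base. IGHV1-26 (Ighv1-26, chromosome 12, 114788372 to 114788665) had the highest mean use of all V genes in both isotypes, and the sequences run from the start of CDR2 to the last base before the junction, with capitals for bases that differ from the germline. For each isotype and replicate the clonotype with most copies among those found in both technical tables was taken. The IgG2 sequences of replicates 3 and 4 and the IgA sequence of replicate 1 were identical to that of IgG2 replicate 1, which had 0 differences.
IgG2 replicate 1: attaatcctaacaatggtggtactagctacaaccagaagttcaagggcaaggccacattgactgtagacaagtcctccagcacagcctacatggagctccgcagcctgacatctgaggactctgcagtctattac
IgG2 replicate 2: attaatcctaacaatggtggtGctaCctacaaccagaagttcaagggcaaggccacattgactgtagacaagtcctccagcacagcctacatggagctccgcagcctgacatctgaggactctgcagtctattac
IgA replicate 2: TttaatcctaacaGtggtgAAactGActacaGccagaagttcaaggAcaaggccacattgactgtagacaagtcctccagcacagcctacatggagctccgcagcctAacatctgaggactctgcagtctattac
IgA replicate 3: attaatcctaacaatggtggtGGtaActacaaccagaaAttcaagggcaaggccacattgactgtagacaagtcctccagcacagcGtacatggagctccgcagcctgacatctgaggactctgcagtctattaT
IgA replicate 4: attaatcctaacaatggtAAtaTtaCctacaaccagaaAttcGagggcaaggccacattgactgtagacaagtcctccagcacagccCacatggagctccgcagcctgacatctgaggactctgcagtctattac
The IgG2 sequence of replicate 2 carried 2 changed bases, at positions 22 and 26 of the stretch. The IgA sequences of replicates 2, 3 and 4 differed at 9, 6 and 7 bases, of which 8, 4 and 6 lay in the first 48 bases, CDR2 and the start of framework 3. These differences were read against the germline taken from unmutated sequences, and for the IgA sequence of replicate 2 the deposited mismatch count is 8, 1 fewer. Position 26 was changed in all 4 of these mutated sequences. The leading IGHV1-26 clonotypes were thus at the germline in 3 of 4 IgG2 repertoires, against 1 of 4 IgA repertoires. The IgG2 clonotype of replicate 1 also had 3164 IgA copies, more than the 2477 of the IgA clonotype taken there. These IgA copies lay in 1 technical table only, so it was not taken for IgA.

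The largest clonotype of each isotype and replicate, again among those in both technical tables, is given by its junction, with capitals for the bases between the first 9 and the last 9, where V, D and J are joined and no template fixes every base.
IgG2 replicate 1: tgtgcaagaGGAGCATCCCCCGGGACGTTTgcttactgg
IgG2 replicate 2: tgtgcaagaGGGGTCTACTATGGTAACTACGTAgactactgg
IgG2 replicate 3: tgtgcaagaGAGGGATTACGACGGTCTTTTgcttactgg
IgG2 replicate 4: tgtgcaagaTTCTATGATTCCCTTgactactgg
IgA replicate 1: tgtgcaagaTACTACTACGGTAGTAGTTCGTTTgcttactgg
IgA replicate 2: tgtgctgacTATGGTAACCTCgatgtctgg
IgA replicate 3: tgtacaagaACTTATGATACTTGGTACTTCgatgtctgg
IgA replicate 4: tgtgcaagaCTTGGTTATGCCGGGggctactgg
The 4 IgG2 junctions belonged to IGHV1-26 with IGHJ3, IGHV1-76 with IGHJ2, IGHV1-72 with IGHJ3 and IGHV1-85 with IGHJ2. The 4 IgA junctions belonged to IGHV1-26 with IGHJ3, IGHV3-6 with IGHJ1, IGHV1-76 with IGHJ1 and IGHV1-26 with IGHJ2. The mismatch count of a clonotype, here and below, is that of its most-copied sequence. All 4 leading IgG2 clonotypes had 0 V mismatches, against 0, 0, 2 and 7 in the leading IgA clonotypes. Of the 12 clonotypes that ranked 1, 2 or 3 by copies in IgG2, 10 had 0 V mismatches and the other 2 had 1, against 4 of 12 with 0 and up to 15 in IgA. Some of them held many copies of another isotype. The leading IgG2 clonotype of replicate 1 had 4733 IgG2 and 3164 IgA copies. Those of rank 2 in replicates 1 and 2 had 740 and 2137 IgG2 copies, with 541 and 2136 IgM copies. In IgA, that of rank 3 in replicate 2 had 10003 IgA and 4641 IgM copies.

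How isotypes are listed bears on every result. Within 1 technical table each distinct sequence stood under 1 isotype almost without exception, with 1 to 26 of 17168 to 283926 sequences under more than 1. Between the 2 tables of a replicate, 93.0%, 87.4%, 94.6% and 93.1% of the sequences found in both had the same isotype, and of those with at least 100 copies in both, the shares were 90.3%, 75.0%, 81.6% and 88.5%. The leading IgG2 clonotype of replicate 1 is such a case, with 4718 and 15 IgG2 copies but 0 and 3164 IgA copies in its first and second table. In replicate 2 an IGHV1-53 with IGHJ4 clonotype had 0 and 2107 IgG2 copies, against 2660 and 174 IgA copies. Of the sequences that were IgG2 in either table and present in both, 64.6%, 69.1%, 70.03% and 78.4% were IgG2 in both, against 93.4%, 76.1%, 95.1% and 94.3% of the IgA ones. Among sequences with at least 100 copies in both, 60%, 46.8%, 50% and 46.2% of those that were IgG2 in either table were IgG2 in both, against 91.7%, 66.0%, 80.3% and 89.4% of the IgA ones. Over all sequences, those of IgG2 that changed isotype were most often IgM in the other table, at 11.3% to 18.3%, and IgA at 5.60% to 14.6%. With at least 100 copies in both, 20%, 30.4%, 33.3% and 38.5% were IgM in the other table. The IgA shares there were 20%, 22.8%, 0% and 15.4%, all from 5, 79, 6 and 13 sequences. The mutation, CDR3 length and clone size results are therefore also given for clonotypes listed under 1 isotype only and found in both tables, which left 28, 1841, 217 and 448 IgG2 clonotypes and 514, 4144, 2553 and 3507 IgA clonotypes.

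IgG2 clonotypes carried fewer V mismatches than IgA clonotypes in all 4 spleens. The mismatched share of aligned V bases, averaged over clonotypes, was 1.61%, 1.96%, 1.86% and 1.90% in IgG2 of replicates 1 to 4, against 3.11%, 2.95%, 3.37% and 3.24% in IgA. The lowest IgA value lay above the highest IgG2 value. IgG2 averaged 1.83% ± 0.153 and IgA 3.17% ± 0.180 (SD, n = 4 each), a difference of -1.33 ± 0.241 percentage points within replicates. The exact two-sided sign-flip permutation test gave p = 0.125, the smallest that 4 pairs allow, so no single value per replicate in this comparison could pass a threshold of 0.05. The same holds for each such test below.

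Clonotypes whose most-copied sequence had no V mismatch made up 37.8%, 33.4%, 36.1% and 31.2% of IgG2, against 20.9%, 25.8%, 15.9% and 16.3% of IgA. The groups did not overlap, and the difference averaged 14.9 ± 5.35 points, with IgG2 higher in 4 of 4 (exact sign-flip permutation p = 0.125, n = 4 pairs). Other sequences of such a clonotype can carry mismatches. With each distinct sequence counted once, the unmutated share averaged 23.5% in IgG2 and 10.9% in IgA. At the other end, 3.78%, 4.73%, 4.22% and 4.01% of IgG2 clonotypes had 10 mismatches or more, against 11.9%, 12.4%, 12.6% and 11.6% of IgA clonotypes. The most mutated clonotype had 18 to 22 mismatches in IgG2 and 20 to 29 in IgA. Among mutated clonotypes alone the level was 2.57%, 2.90%, 2.88% and 2.73% in IgG2, against 3.92%, 3.95%, 3.99% and 3.85% in IgA, and the isotypes were apart there too.

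As a frame for these levels, spleen IgM clonotypes averaged 0.670%, 0.667%, 0.513% and 0.499% mismatched V bases, and 68.3% to 70.8% of them had none. IgG2 thus lay above IgM and below IgA in each replicate. IgG3 lay at 1.65% to 1.90% and IgG1 at 2.28% to 3.34%, each from fewer clonotypes than IgG2 in the same replicate.

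**Figure D1:**
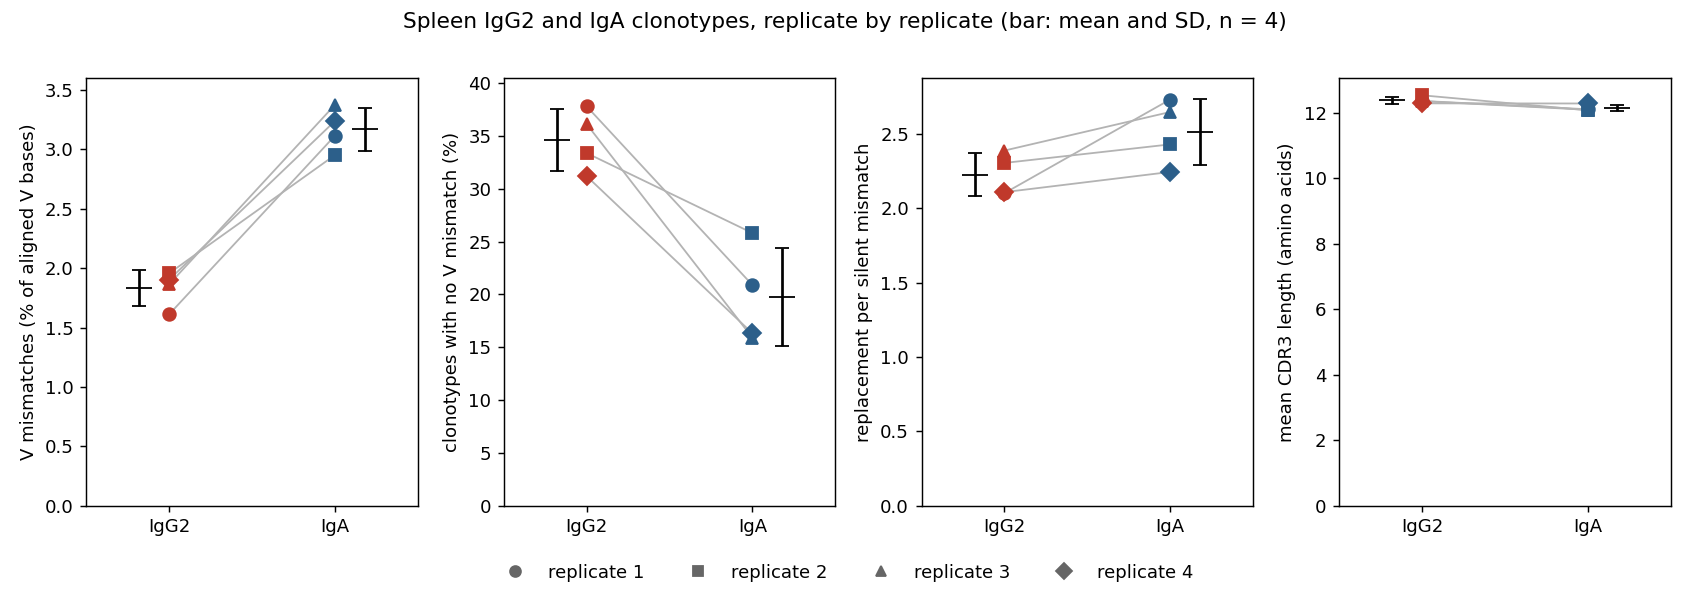
V mismatches, clonotypes without a mismatch, replacement per silent mismatch and mean CDR3 length in IgG2 (left, red) and IgA (right, blue) of 4 spleens. Grey lines join the isotypes of a replicate and black bars give the mean and SD (n = 4). IgG2 is lower in V mismatches and in replacement per silent mismatch and higher in the other 2 measures in every replicate.

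Grouping related clonotypes made the difference smaller. Lineages joined clonotypes of a replicate and isotype that had V gene, J gene and junction length in common and whose junctions were at least 85% identical, and held 1.55, 1.76, 1.37 and 1.54 clonotypes each in IgG2, against 2.06, 2.18, 2.50 and 2.61 in IgA. The largest lineage held 14, 252, 16 and 68 IgG2 clonotypes, against 147, 893, 370 and 576 IgA clonotypes. Counted once per lineage, V mutation was 1.84%, 1.95%, 1.92% and 2.03% in IgG2, against 2.32%, 2.01%, 2.85% and 2.62% in IgA. The difference shrank to -0.511 points, with IgG2 still lower in 4 of 4 but by only a small margin in replicate 2. The unmutated share per lineage was 40.6%, 37.6%, 38.0% and 33.5% in IgG2, against 33.9%, 40.3%, 25.6% and 28.0% in IgA, and in replicate 2 IgA was then the higher.

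Restricting to clonotypes of 1 isotype found in both tables made the difference larger. V mutation was then 0.845%, 1.87%, 1.24% and 1.39% in IgG2, against 3.17%, 3.74%, 3.30% and 3.21% in IgA, a difference of -2.02 points. The unmutated share was 71.4%, 38.5%, 57.1% and 46.2% in IgG2, against 24.5%, 14.6%, 17.8% and 17.8% in IgA. This restriction also leaves out every single-copy clonotype. Without single-copy clonotypes alone, V mutation differed by -1.57 points. The unmutated share then averaged 48.2% in IgG2 and 25.4% in IgA. The part of clonotype size in the larger difference was not tested.

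The gap between the isotypes was wider among large clonotypes. In bulk RNA a clonotype's copies do not tell more cells from more RNA per cell, which cannot be told apart here. Among clonotypes with a single copy, V mutation was 1.85%, 2.02%, 2.16% and 2.15% in IgG2, against 3.41%, 2.89%, 3.503% and 3.37% in IgA. Among those with 100 copies or more it was 0.2003%, 0.837%, 0.361% and 0.752% in IgG2, from 16, 174, 14 and 44 clonotypes, against 3.67%, 3.17%, 3.57% and 3.55% in IgA, from 85, 585, 220 and 356. In IgG2 the large clonotypes were less mutated than the single-copy ones in 4 of 4 replicates, and in IgA more mutated in 4 of 4. IgA showed no steady course with size, since its clonotypes of 10 to 99 copies were less mutated than the single-copy ones in 4 of 4. The unmutated share of IgA was also higher at 100 copies or more than at a single copy, where it was 12.2%, 26.0%, 12.98% and 13.1%.

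Of the IgG2 clonotypes with 100 copies or more, 15 of 16 in replicate 1 had no V mismatch (93.8%, exact Clopper-Pearson 95% interval 69.8 to 99.8%), 122 of 174 in replicate 2 (70.1%, 62.7 to 76.8%), 12 of 14 in replicate 3 (85.7%, 57.2 to 98.2%) and 26 of 44 in replicate 4 (59.1%, 43.2 to 73.7%). Of the IgA ones, 21 of 85 had none in replicate 1 (24.7%, 15.99 to 35.3%), 171 of 585 in replicate 2 (29.2%, 25.6 to 33.1%), 34 of 220 in replicate 3 (15.5%, 10.9 to 20.9%) and 67 of 356 in replicate 4 (18.8%, 14.9 to 23.3%). The intervals of the isotypes did not overlap in any replicate, but they cover counting error only. They also treat clonotypes as independent. Over all sizes, 39.7% to 71.9% of clonotypes lay in lineages of 2 or more, so the intervals may be too narrow. The difference averaged 55.1 ± 16.8 points (exact sign-flip permutation p = 0.125, n = 4 pairs). A high unmutated share at this size was not particular to IgG2. In spleen IgM it was 75%, 70.1%, 66.3% and 63.6%, from 12, 478, 83 and 132 clonotypes of 100 copies or more. Copies of another isotype moved with size: 37.5%, 81.6%, 42.9% and 65.9% of these large IgG2 clonotypes also held copies of another isotype in the replicate, against 18.8%, 69.2%, 30.9% and 21.6% of the large IgA ones. Among large clonotypes of 1 isotype found in both tables, 10 of 10, 27 of 32, 7 of 8 and 10 of 15 IgG2 clonotypes had no mismatch, against 17 of 69, 32 of 180, 22 of 152 and 50 of 279 IgA clonotypes. In that set the difference averaged 65.9 points. Weighted by copies, V mutation was 0.405%, 1.18%, 0.609% and 1.03% in IgG2, against 3.04%, 3.43%, 3.51% and 3.47% in IgA.

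**Figure D2:**
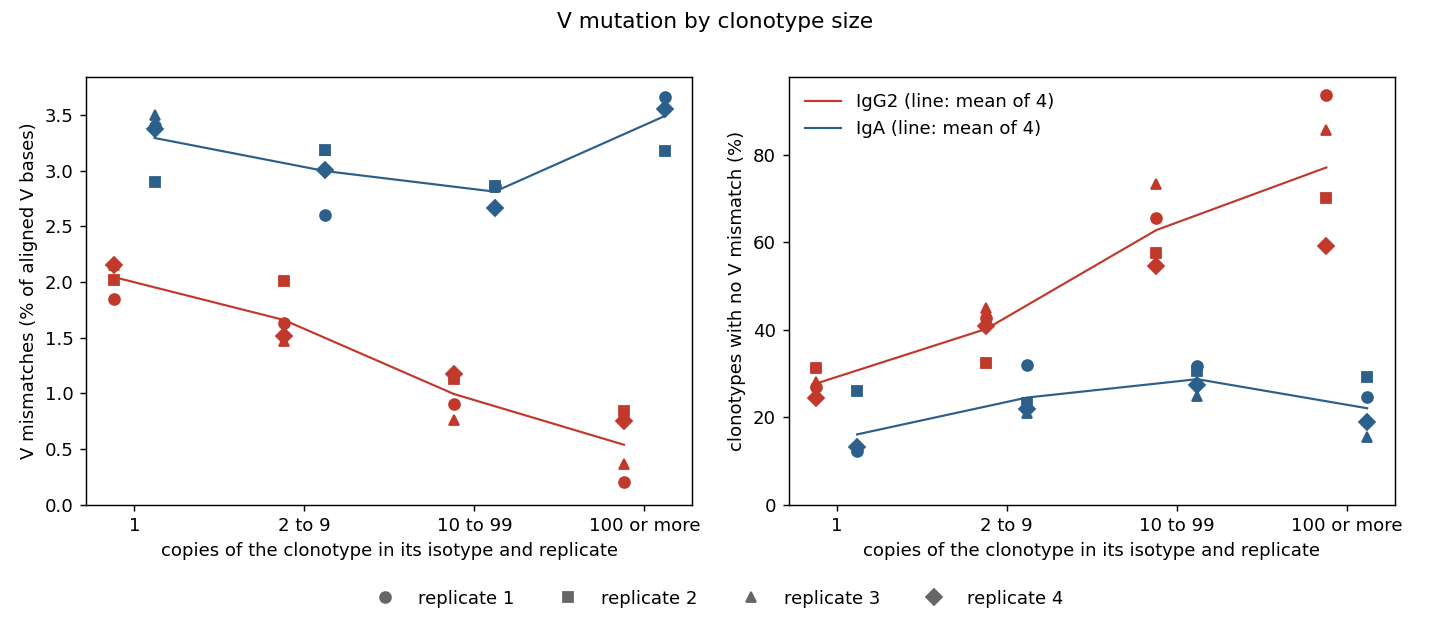
V mismatches (left) and clonotypes without a mismatch (right) by the number of copies of a clonotype in IgG2 (red) and IgA (blue). Each point is a replicate and lines join the means of 4. In the class of 100 copies or more, IgG2 lies between 0.2003% and 0.837% mismatched bases and IgA between 3.17% and 3.67%.

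The lower mutation of IgG2 held within single V genes. Of 26 V genes with at least 10 clonotypes of both isotypes in each replicate, 22 had fewer mismatches in IgG2, 0 had more, and 4 did not pass (limma with the replicate as a block, adjusted p under 0.05), which is 84.6% called lower. All 26 fitted changes were below 0, with a median log2 fold change of -0.76, and in 12 genes, 46.2% of those tested, all 4 IgG2 values lay below all 4 IgA values. The mean IgG2 level ran from 43.0% to 88.6% of the mean IgA level of the same gene.

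The 5 genes with the largest called changes came from 4 families. In IGHV1-55 (chromosome 12, 115208137 to 115208527) V mutation was 1.22%, 2.43%, 1.70% and 2.09% in IgG2, against 4.23%, 3.70%, 4.30% and 4.50% in IgA, a log2 fold change of -1.21 ± 0.21 (SE, limma adjusted p = 0.00415). In IGHV9-3 (114140692 to 114141122) it was 0.602%, 0.897%, 0.912% and 1.32% in IgG2, against 2.90%, 1.26%, 1.87% and 2.67% in IgA (log2 -1.20 ± 0.28, adjusted p = 0.00938). In IGHV1-59 (115335057 to 115335513) it was 1.89%, 1.79%, 1.91% and 0.927% in IgG2, against 4.65%, 3.38%, 3.77% and 2.49% in IgA (log2 -1.15 ± 0.16, adjusted p = 0.00394). The IgG2 and IgA ranges were apart for IGHV1-55 and IGHV1-59 and overlapped slightly for IGHV9-3, where IgG2 was still lower in 4 of 4 replicates. IGHV3-6 and IGHV8-8 had log2 fold changes of -1.14 ± 0.21 (limma adjusted p = 0.00415) and -1.05 ± 0.32 (adjusted p = 0.0202), and IGHV8-8 lost its call without replicate 3 (adjusted p = 0.111).

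IGHV1-62-3 and IGHV1-53 were the nearest to level between the isotypes. IGHV1-62-3 had the highest mean mutation in IgG2, and 2 positions of its IGHV1-62-3*01 allele were also mismatched in 48.05% and 32.3% of 4069 IgM sequences. It had 3.01%, 3.06%, 3.33% and 2.84% in IgG2, against 3.43%, 3.15%, 3.47% and 3.77% in IgA (log2 -0.17 ± 0.15, limma adjusted p = 0.274). IGHV1-53 had 2.83%, 2.48%, 2.46% and 2.40% in IgG2, against 2.65%, 2.94%, 3.31% and 2.997% in IgA (log2 -0.22 ± 0.15, adjusted p = 0.197). The other 2 that did not pass were not level. IGHV1-22 (log2 -0.76 ± 0.34, limma adjusted p = 0.0664) and IGHV9-4 (log2 -0.41 ± 0.21, adjusted p = 0.0898) were each lower in IgG2 in 3 of 4 replicates. IGHV1-72, the gene of the classical response to the hapten NP, was among the called genes, at 1.64%, 0.815%, 1.34% and 1.05% in IgG2, against 2.68%, 1.59%, 2.58% and 2.54% in IgA. By family, 16 of 19 tested IGHV1 genes, 3 of 3 IGHV14 genes, 1 of 1 IGHV3 gene and 1 of 2 IGHV9 genes were called lower. Counted per lineage, 18 genes could be tested and 7 of them were called, all lower in IgG2. With each of the 26 V genes given equal weight in both isotypes, and all other V genes left out, V mutation was 1.59%, 1.98%, 1.97% and 1.87% in IgG2. In IgA it was then 2.98%, 2.92%, 3.25% and 2.93%, a difference of -1.17 points.

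**Figure D3:**
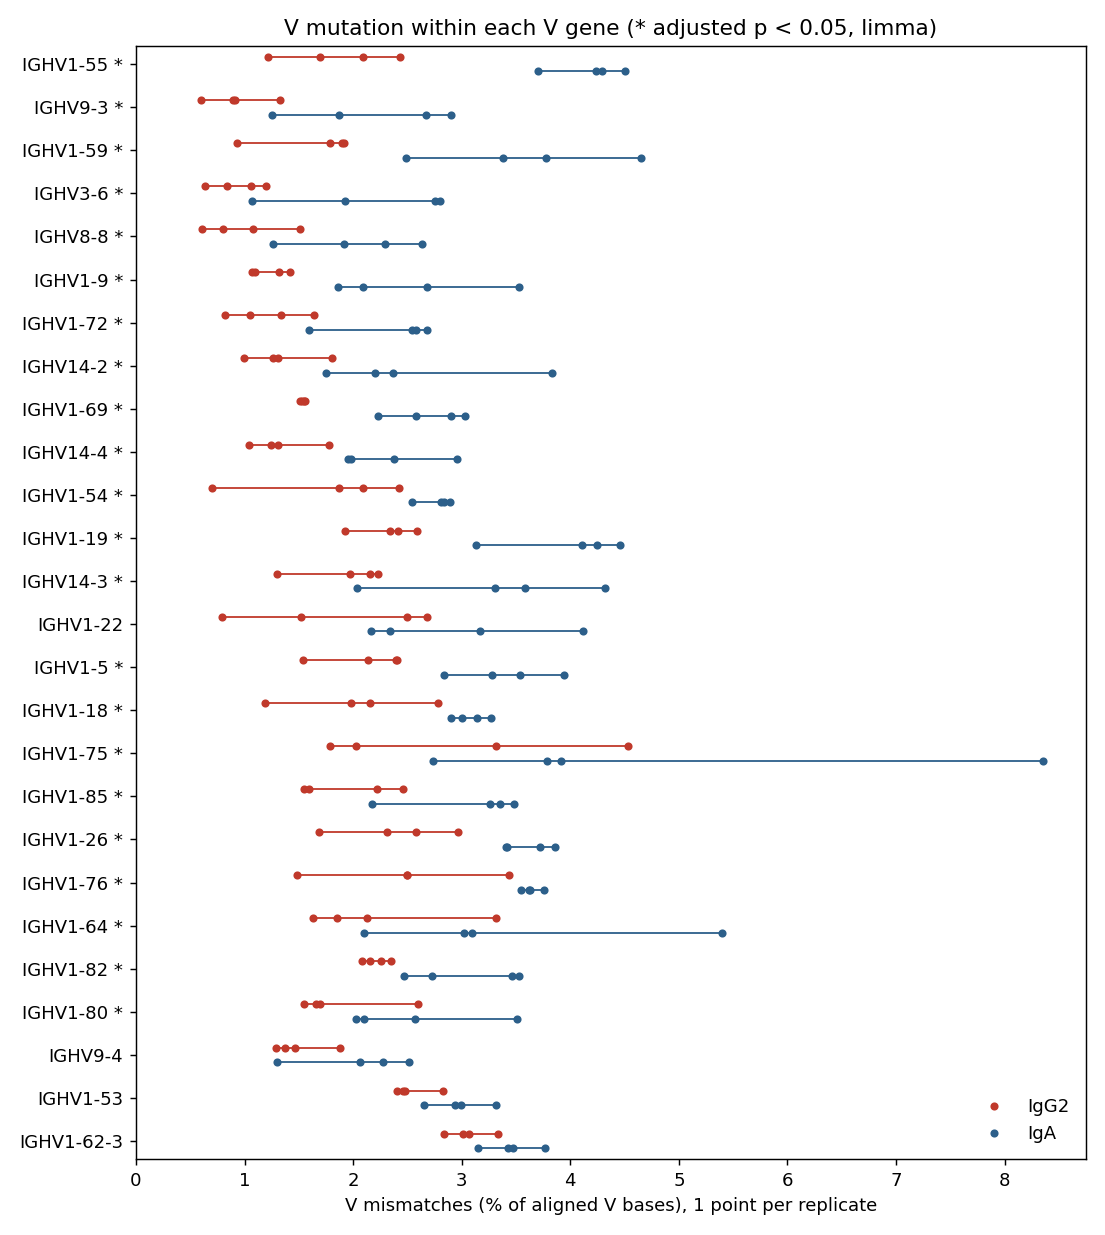
V mismatches as a percent of aligned V bases for 26 V genes, with 1 point per replicate for IgG2 (red, upper line of each gene) and IgA (blue, lower line), ordered by log2 fold change. A star marks the 22 genes with limma adjusted p under 0.05, all lower in IgG2.

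Along the V segment, codons 1 and 14 before the conserved cysteine were the most mismatched in both isotypes. In clonotypes of genes with 45 codons between the start of CDR2 and the junction (82.9% of IgG2 and 87.3% of IgA clonotypes with a known germline), the mean share with a mismatch was lower in IgG2 at all 45 codons and lower in 4 of 4 replicates at 40. The median ratio of IgG2 to IgA was 0.560. Counted back from the conserved cysteine, codon 14 was mismatched in 14.6% of IgG2 and 20.4% of IgA clonotypes on average, and codon 19 in 6.75% and 17.2%, the widest relative gap among the 6 most mismatched IgA codons. Over the last 5 codons before the junction the ratio was 0.721 to 0.936, and at the codon next to the junction 18.1% of IgG2, 21.6% of IgA and 6.11% of IgM clonotypes had a mismatch. That codon was also the most mismatched of the 45 in IgM, and the part of such mismatches in the result was not tested. Without positions mismatched in at least 30% of the IgM sequences of an allele, V mutation was 1.53% to 1.88% in IgG2, against 2.89% to 3.29% in IgA.

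**Figure D4:**
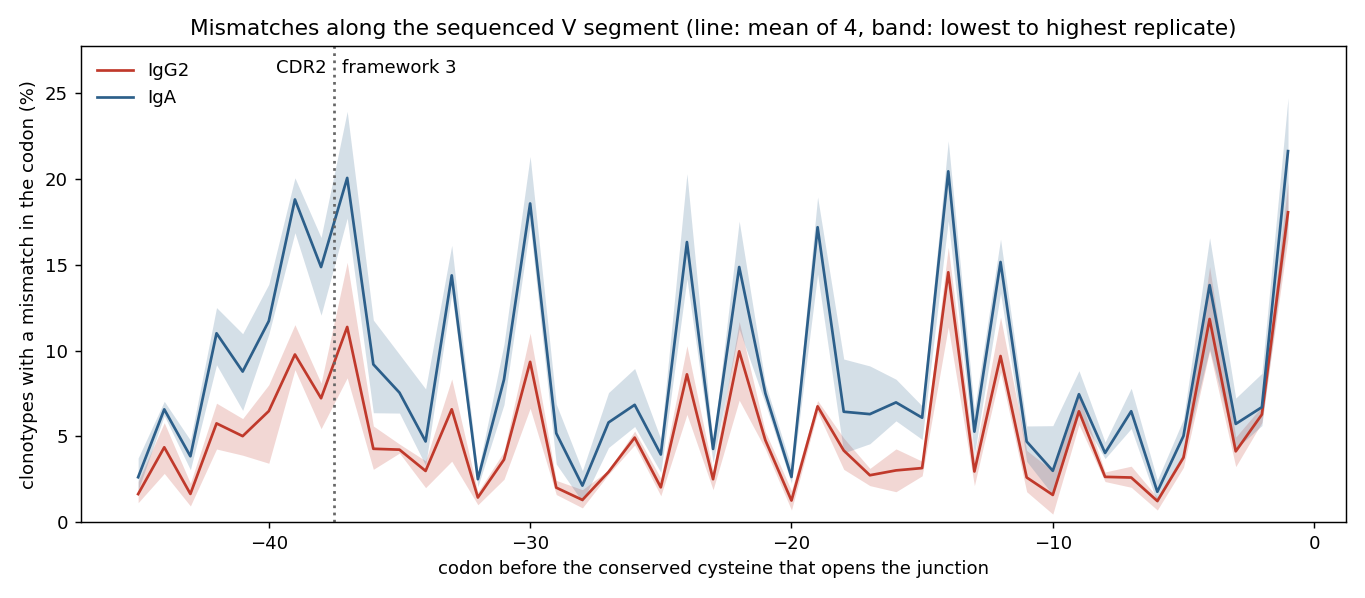
Share of clonotypes with a mismatch at each of 45 codons before the conserved cysteine, as the mean of 4 replicates (line) with the lowest and highest replicate (band), in IgG2 (red) and IgA (blue). The dotted line parts CDR2 from framework 3. The IgG2 line runs below the IgA line at every codon, at 14.6% against 20.4% at codon -14.

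Relative to IgA, IgG2 had fewer mismatches in CDR2, a loop that touches antigen, than in framework 3, part of the scaffold. The level in CDR2 was 1.46%, 1.96%, 2.05% and 1.84% in IgG2, against 3.87%, 3.35%, 3.85% and 3.38% in IgA. In framework 3 it was 1.55%, 1.85%, 1.74% and 1.82% in IgG2, against 2.91%, 2.77%, 3.18% and 3.07% in IgA. CDR2 over framework 3 was 0.948, 1.06, 1.18 and 1.01 in IgG2, against 1.33, 1.21, 1.21 and 1.10 in IgA. It was lower in IgG2 in 4 of 4 replicates with overlapping groups, by -0.21 ± 0.19 on the log2 scale (exact sign-flip permutation p = 0.125, n = 4 pairs). Without replicate 1 the difference was -0.12.

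AID prefers certain short motifs, and the share of mismatches at them was lower in IgG2. Hotspot bases were the last C of AAC, AGC, TAC or TGC and the first G of GTT, GCT, GTA or GCA, the same motifs on the other strand. They made up 14.5% to 14.98% of germline bases in IgG2 and 14.6% to 14.9% in IgA, and 24.3%, 29.2%, 30.2% and 30.2% of mismatches in IgG2, against 34.4%, 31.3%, 33.3% and 33.2% in IgA. In every replicate of both isotypes the mismatches were thus more frequent there than the bases themselves. The difference was -4.58 ± 3.75 points (exact sign-flip permutation p = 0.125, n = 4 pairs) and -2.72 without replicate 1, whose IgG2 value lay far below the others. A or T were the mismatched germline base in 49.9% to 53.4% of IgG2 and 48.1% to 50.3% of IgA mismatches.

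Of the 12 kinds of base change, 2 made up more of the IgG2 mismatches and 1 less, 16.7% and 8.33% of those tested (limma, adjusted p under 0.05). Changes of T to C were 10.9%, 8.89%, 8.89% and 10.0% of IgG2 mismatches, against 6.87%, 8.00%, 6.77% and 6.98% of IgA mismatches (log2 0.43 ± 0.09, limma adjusted p = 0.0200). Changes of C to A were 4.64%, 4.22%, 4.46% and 4.76% in IgG2, against 3.09%, 3.57%, 3.20% and 3.70% in IgA (log2 0.42 ± 0.07, adjusted p = 0.00909). Changes of G to T were 2.02%, 2.61%, 1.96% and 1.98% in IgG2, against 2.99%, 3.08%, 2.59% and 2.68% in IgA (log2 -0.41 ± 0.06, adjusted p = 0.00909). In IgM these 3 kinds averaged 14.2%, 4.94% and 1.64%, so the IgG2 profile lay between those of IgM and IgA for each. No kind was called among clonotypes of 1 isotype found in both tables (0 of 12, 0 at an unadjusted p under 0.05, lowest limma adjusted p = 0.683), where T to C was 0.46, C to A 0.49 and G to T 0.12 on the log2 scale, or without replicate 4 (0 of 12, 3 at an unadjusted p under 0.05), where they were 0.40, 0.43 and -0.40, and only 1 without single-copy clonotypes.

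Replacement mismatches change an amino acid and silent ones do not, and their ratio rises where change is favoured by selection. From the deposited counts, replacement per silent mismatch was 2.10, 2.30, 2.39 and 2.11 in IgG2, against 2.73, 2.43, 2.65 and 2.24 in IgA. IgG2 was lower in 4 of 4 replicates with overlapping groups, by -0.17 ± 0.14 on the log2 scale (exact sign-flip permutation p = 0.125, n = 4 pairs), and by -0.10 without replicate 1. Without single-copy clonotypes the difference was -0.08, with IgG2 lower in 3 of 4. Weighted by copies the ratio was 2.80, 2.85, 2.87 and 2.41 in IgG2, against 3.37, 2.58, 3.41 and 2.37 in IgA. There IgG2 was the higher in replicates 2 and 4. By region the deposited counts were not used. Each mismatch before the junction was instead set alone into the germline codon read from unmutated sequences. Over both regions this gave a mean ratio of 1.86 in IgG2 and 2.08 in IgA. In CDR2 the ratio was 3.51, 3.74, 3.67 and 3.71 in IgG2, against 4.63, 3.93, 4.996 and 3.05 in IgA, lower in 3 of 4. In framework 3 it was 1.61, 1.65, 1.75 and 1.52 in IgG2, against 1.97, 1.73, 1.79 and 1.64 in IgA. Both isotypes thus had the higher ratio in CDR2, and per lineage the difference between them was -0.04, lower in 3 of 4.

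CDR3 loops were slightly longer in IgG2. The mean length was 12.36, 12.53, 12.35 and 12.28 amino acids in IgG2, against 12.10, 12.07, 12.09 and 12.28 in IgA. The difference of 0.245 ± 0.186 had the same sign in 4 of 4 replicates, but was 0.0041 in replicate 4 (exact sign-flip permutation p = 0.125, n = 4 pairs). Among clonotypes of 1 isotype found in both tables it was 0.541, and weighted by copies 0.563. No single length passed (0 of 16, 0% called, edgeR's quasi-likelihood test, 0 at an unadjusted p under 0.05). Lengths of 12 and 13 amino acids held 18.1%, 15.9%, 15.1% and 22.8%, and 16.5%, 19.5%, 14.5% and 15.2%, of IgG2 clonotypes, against 11.4%, 11.5%, 19.4% and 14.6%, and 12.7%, 14.5%, 14.5% and 8.11%, of IgA clonotypes. Without replicate 3 both lengths were called higher in IgG2 (edgeR adjusted p = 0.0189 and 0.0249).

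In the centre of the CDR3, with 3 junction positions left out at each end, no amino acid passed (0 of 20, 0% called, limma, 5 at an unadjusted p under 0.05). Phenylalanine had the lowest p, at 7.62%, 7.81%, 8.54% and 8.26% of residues in IgG2, against 10.9%, 9.39%, 9.58% and 10.1% in IgA (log2 -0.31 ± 0.10, limma adjusted p = 0.189), with the groups apart. Serine was also apart, at 9.90%, 10.1%, 9.35% and 9.98% in IgG2, against 8.76%, 9.35%, 8.60% and 8.03% in IgA (adjusted p = 0.277). Tyrosine, the residue that most often contacts antigen, was the commonest in both, at 19.3% to 22.7% of IgG2 and 18.4% to 21.3% of IgA residues. Both phenylalanine and serine are named here after their values were seen. Without replicate 2, glutamine was called lower in IgG2 (log2 -0.84, limma adjusted p = 9.44e-05).

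No V gene differed in use between the isotypes beyond the spread between replicates (0 of 73, 0% called, edgeR's quasi-likelihood test with the replicate as a block, 6 at an unadjusted p under 0.05), and DESeq2 also called 0 of 142 (8 at an unadjusted p under 0.05). IGHV8-8 had the lowest p, at 1.08%, 2.01%, 0.720% and 2.95% of clonotypes in IgG2, against 0.788%, 0.838%, 0.643% and 0.880% in IgA (log2 1.01 ± 0.34, edgeR adjusted p = 0.465). IGHV1-26 held 9.72%, 11.5%, 7.15% and 5.60% of IgG2 clonotypes, against 12.3%, 9.15%, 6.89% and 8.54% of IgA clonotypes, in no steady direction. The IGHV1 family, the large J558 group, made up 81.5%, 66.4%, 74.6% and 71.9% of IgG2 clonotypes, against 73.1%, 72.3%, 72.0% and 75.5% of IgA clonotypes. Of its 40 tested genes, 0 passed in either direction and the median log2 fold change was 0.02, and the 8 IGHV5, 6 IGHV2, 4 IGHV14, 4 IGHV9 and 2 IGHV3 genes tested also had 0 calls.

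None of the 8 families with at least 1% of clonotypes passed (lowest adjusted p = 0.667, exact sign-flip permutation test). Of these, IGHV6 was the one lower in IgG2 in 4 of 4 replicates, at 0.216%, 2.06%, 1.34% and 1.14%, against 1.34%, 2.72%, 1.54% and 1.41% in IgA. IGHV7, below the 1% minimum and not tested, was also lower in 4 of 4, at 0.648%, 0.923%, 0.257% and 0.585% in IgG2, against 0.963%, 1.92%, 1.29% and 1.06% in IgA. IGHV14 was 6.26%, 3.29%, 4.01% and 4.49% in IgG2, against 8.00%, 3.002%, 8.59% and 3.56% in IgA. IGHV8 was 1.62%, 3.89%, 2.26% and 4.79% in IgG2, against 1.96%, 2.12%, 1.32% and 2.22% in IgA, higher in 3 of 4. IGHV2, IGHV3, IGHV5 and IGHV9 differed by -0.510 to 0.311 points on average.

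Among the genes of B-1a cells, the innate-like B cells that make natural antibodies, IGHV12-3 (Ighv12-3, chromosome 12, 114366526 to 114366819) had the most IgG2 clonotypes. It had 0, 265, 29 and 1 clonotypes in IgG2, which is 0%, 1.48%, 1.49% and 0.0279%, against 0, 59, 0 and 0 in IgA, which is 0.176% in replicate 2. A count of 0 allows a share of up to 0.324% in IgG2 of replicate 1, and of up to 0.0875%, 0.0257% and 0.0171% in IgA of replicates 1, 3 and 4, from a floor of 3 clonotypes. It was thus common in IgG2 of replicates 2 and 3 only, where its clonotypes fell into 54 and 20 lineages. IGHV12-3 did not pass edgeR's filter on low counts and so was not in the main test. Without the filter it was called higher in IgG2 (edgeR adjusted p = 8.22e-07) and IGHV7-4 lower (adjusted p = 0.0114), while DESeq2 called neither. Its clonotypes carried few mismatches, 0.621% and 0.324% of V bases in IgG2 of replicates 2 and 3, against 0.724% in IgA of replicate 2. IGHV11-1 and IGHV11-2, the other B-1a genes, and the natural antibody gene IGHV7-1 held at most 0.216% of clonotypes of either isotype in each replicate.

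No J gene differed in 1 direction in all 4 replicates. IGHJ1 was 9.18%, 19.7%, 13.7% and 16.8% of IgG2 clonotypes, against 23.4%, 14.3%, 19.3% and 22.3% of IgA clonotypes. IGHJ4 was 29.0%, 32.3%, 25.2% and 27.9% in IgG2, against 18.4%, 25.4%, 30.1% and 19.3% in IgA. IGHJ1 was the lower and IGHJ4 the higher in IgG2 in 3 of 4 replicates each (exact sign-flip permutation p = 0.25, adjusted p = 0.5, n = 4 pairs), with replicate 2 apart for IGHJ1 and replicate 3 for IGHJ4. IGHJ2 was 26.2%, 25.8%, 34.0% and 33.8% in IgG2, against 24.1%, 36.7%, 25.8% and 26.8% in IgA. IGHJ3 was 35.5%, 22.2%, 27.1% and 21.5% in IgG2, against 34.1%, 23.5%, 24.8% and 31.7% in IgA. None of the 4 passed, and the signs for IGHJ2 and IGHJ3 depended on the setting. Both isotypes used IGHJ3 more than spleen IgM did, at 9.73% to 12.8%.

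Over all clonotypes, no measure of how copies spread over clonotypes had the same direction in 4 of 4 replicates. At 13745 copies drawn from each isotype and replicate, the total of the smallest, IgG2 had 902, 3830, 1944 and 2583 distinct clonotypes, against 1806, 3255, 2773 and 2747 in IgA. IgG2 had fewer in 3 of 4 replicates and more in replicate 2 (exact sign-flip permutation p = 0.375, n = 4 pairs). The 10 largest clonotypes held 55.1%, 15.1%, 51.2% and 19.1% of IgG2 copies, against 25.8%, 19.0%, 16.8% and 17.2% of IgA copies (exact sign-flip permutation p = 0.375, n = 4 pairs). In replicates 1 and 3 single clonotypes weighed heavily, with the largest at 33.0% and 26.5% of IgG2 copies, against 6.39% and 5.25% of IgA copies. In replicates 2 and 4 the largest held 2.81% and 3.12% of IgG2 copies, against 3.76% and 3.63% of IgA copies. The largest IgG2 clonotype of replicate 1 is the one listed as IgA in the other table, while that of replicate 3, IGHV1-72 with IGHJ3 and 3647 copies, was IgG2 in both.

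Among clonotypes of 1 isotype found in both tables, drawn to equal copies, the 10 largest held a higher share of copies in IgG2 in 4 of 4. The 10 largest held 76.5%, 34.6%, 76.1% and 31.9% of IgG2 copies, against 30.2%, 33.2%, 23.7% and 22.0% of IgA copies, a difference of 27.4 points (exact sign-flip permutation p = 0.125, n = 4 pairs). The largest held 16.99%, 10.9%, 42.6% and 7.67% of IgG2 copies, against 7.43%, 9.35%, 7.80% and 4.84% of IgA copies. IgG2 of replicate 1 had only 28 clonotypes in that set.

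Per lineage, at the same number of copies, the 10 largest held 55.6%, 17.8%, 52.6% and 23.0% of IgG2 copies, against 35.8%, 33.5%, 40.7% and 41.2% of IgA copies, a mean difference of -0.551 points. IgG2 clonotypes averaged 15.5, 6.27, 7.07 and 6.25 copies, against 14.5, 12.4, 11.2 and 14.01 for IgA, fewer in 3 of 4 (exact sign-flip permutation p = 0.25, n = 4 pairs). Among clonotypes of 1 isotype found in both tables they averaged 96.3, 15.6, 39.5 and 18.1 copies, against 64.8, 40.3, 34.7 and 51.6 for IgA, fewer in 2 of 4.

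**Figure D5:**
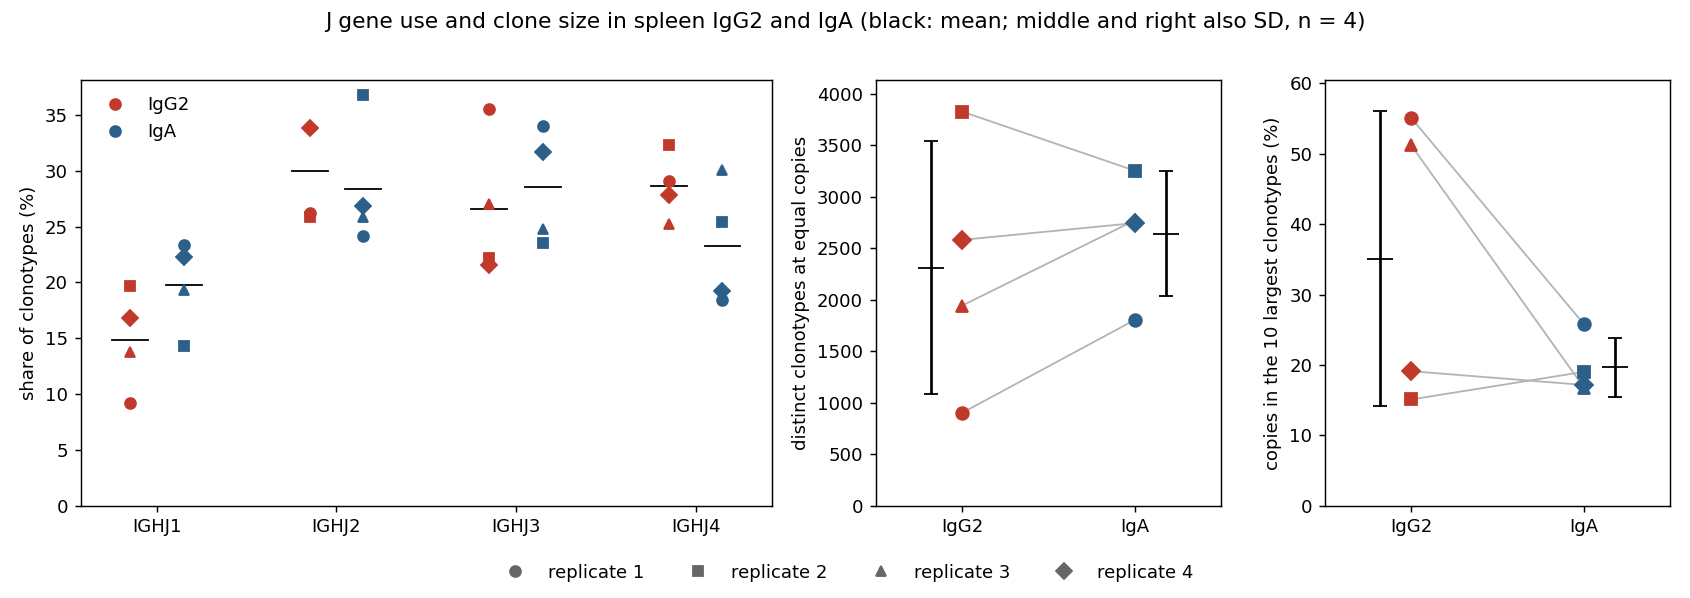
Shares of clonotypes per J gene (left), distinct clonotypes at 13745 copies (middle) and copies in the 10 largest clonotypes (right) for IgG2 (red, left of each pair) and IgA (blue). Points are replicates, and the 10 largest hold 55.1% and 51.2% of IgG2 copies in replicates 1 and 3, against 15.1% and 19.1% in replicates 2 and 4.

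Clonotypes of both isotypes were few but held many of the IgG2 copies. In replicates 1 to 4, 26, 1237, 112 and 170 clonotypes had copies of both, which is 2.81%, 6.92%, 5.76% and 4.74% of IgG2 and 0.759%, 3.69%, 0.960% and 0.971% of IgA clonotypes. They held 34.3%, 35.4%, 7.10% and 16.4% of IgG2 copies, against 8.49%, 21.5%, 3.35% and 3.64% of IgA copies. With at least 3 copies of each isotype, 14, 374, 44 and 51 remained. The largest had 0 and 36 IgG2 copies, against 5873 and 5407 IgA copies in the 2 tables of replicate 2, with IGHV1-26 and IGHJ3. Its leading IgG2 sequence had 1 V mismatch and its leading IgA sequence 8. An IGHV6-6 with IGHJ2 clonotype of replicate 2 had 959 and 792 IgG2 copies, against 64 and 225 IgA copies, and was the only one of the 5 largest with both isotypes in both tables.

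Sharing between animals was rare in both isotypes. Of 21967 IgG2 combinations of V gene, J gene and CDR3 amino acids, 20 (0.0910%) were found in at least 2 replicates, 1 in 3 and 0 in 4. Of 53761 IgA combinations, 305 (0.567%) were found in at least 2, 22 in 3 and 2 in 4. Per 1000000 pairs of combinations set against each other, the median over the 6 pairs of replicates was 0.323 in IgG2, between 0 and 0.528, and 0.552 in IgA, between 0.213 and 0.762, so the ranges overlapped. Shared combinations had shorter CDR3s in both, at 10.7 against 12.5 amino acids for those of 1 replicate in IgG2 and 10.7 against 12.2 in IgA. Across isotypes, 77 of 21988 IgG2 combinations, counted per replicate, were found as IgA in another replicate.

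Of the 2 IgA combinations found in all 4 spleens, 1 varied between replicates in its leading junction. The first, IGHV1-76 with IGHJ2, had a different leading junction in each replicate, with capitals for bases that differ from the commonest one.
IgA replicate 1: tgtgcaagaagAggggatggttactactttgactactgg
IgA replicate 2: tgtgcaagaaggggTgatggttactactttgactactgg
IgA replicate 3: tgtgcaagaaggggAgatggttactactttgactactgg
IgA replicate 4: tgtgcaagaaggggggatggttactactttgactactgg
The second, IGHV9-4 with IGHJ2, had the same leading junction in every replicate, with 0 V mismatches in its leading sequence.
IgA replicates 1 to 4: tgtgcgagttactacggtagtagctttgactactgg
The leading junctions of the first had 6, 3, 96 and 232 copies with 5, 3, 4 and 0 V mismatches, and those of the second 4, 1, 25 and 17 copies. Further junctions were present: the first had 3 in replicate 3 and 4 in replicate 4, and the second 3 in replicate 3. Neither combination was among the leading clonotypes of a spleen, and IgG2 had no such member.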

How the data were processed

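Spleen heavy chains were amplified by a commercial repertoire service with constant-region primers carrying molecular identifiers, per the labels' protocols. Per the file headers, the deposited tables list each distinct sequence with its V gene, J gene, isotype, V mismatches and copies. The deposited copies are whole-number counts, not normalized by the authors as far as the values show, and whether they count identifiers or reads is not stated. The mismatch and aligned-base numbers per sequence are also the authors' deposited values. Build mm10 is named per the submitters' processing notes, and the aligner and gene assignment are not given in the sources used here.

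Both technical tables of a replicate were summed. The labels call the 4 samples biological replicates. Depth was 79235 to 683759 copies per spleen library. Clonotypes weighed equally unless stated. The replicate was a block throughout, since both isotypes come from the same libraries. Single values were tested by an exact two-sided sign-flip permutation test over 16 sign patterns (smallest p 0.125), V gene use and CDR3 lengths by edgeR 4.0.16 (quasi-likelihood), and amino acids, base changes and mutation per V gene by limma 3.58.1, with Benjamini-Hochberg adjustment within each family and a threshold of 0.05. DESeq2 1.42.0 was an alternative. The text names the 5 V genes with the largest called change in mutation, fixed V gene lists, every J gene, called base changes, the 3 largest clonotypes per isotype and replicate in both tables and the 5 largest of both isotypes; V genes that did not pass, IGHV1-26 and IGHV8-8 in V gene use were named after their values were seen. On simulated data edgeR recovered 80% of 10 V genes changed 2-fold and 90% of 10 changed 4-fold among 72, with 1 false call, and limma recovered 100% of 10 features changed 2-fold among 40, with 2 false calls. The spread between simulated replicates was set by hand and not estimated from these data. These shares therefore do not tell which fold changes the tests on the spleens could detect. Germline bases were read from unmutated sequences. V gene positions are from RefSeq (GRCm38.p6), where 101 of 142 V genes matched. Members and lists were chosen with earlier results of these data known.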

Additional observations from a re-analysis of the deposited data

Results flagged for a closer look

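Of 74 groups of 4 values tested, 7 held a sample far from the other 3, by a gap over range above Dixon's 95% critical value for 4 samples. Chance flags about 1 in 20 groups. In IgG2, replicate 1 had 15.5 copies per clonotype, against 6.25 to 7.07 in the others, and 24.3% of its mismatches at hotspots, against 29.2% to 30.2%. IgG2 of replicate 4 had 0.927% mismatched bases in IGHV1-59, against 1.79% to 1.91%, and IgG2 of replicate 2 had 2.61% G to T changes, against 1.96% to 2.02%. In IgA, replicate 4 had a mean CDR3 length of 12.28 amino acids, against 12.07 to 12.10. IgA of replicate 1 had a copy-weighted V mutation of 3.04%, against 3.43% to 3.51%, and IgA of replicate 2 had 2.72% IGHV6 clonotypes, against 1.34% to 1.54%.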

How the results depend on the processing

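Across alternatives 140 of the values computed for the main results counted as the same. Single values then kept their sign and side of the threshold, and counts of calls were equal or within 1.5 times. In the paired test the side of the threshold was fixed in advance for single values, V families and J genes. It therefore says nothing on their stability. Of the rest, 6 passed or gained calls under the alternative, 6 counts of calls were lower by over 1.5 times, 2 of them at 0, and 3 reversed. Without the replicate block, in a test over 70 splits, V mutation (-1.33), the unmutated share (14.9) and CDR3 length (0.245) reached p = 0.0286 (exact permutation test, n = 4 each), while calls of V genes by mutation numbered 18. Counted per lineage, the difference in distinct clonotypes was 193 and in the 10 largest -0.551. Drawing the smaller isotype's copies of each replicate gave a mean of 728 distinct clonotypes more in IgG2, carried by replicate 2 (17872 against 13092), with fewer in the other 3. V gene use had 2 calls with no filter. V genes called by mutation numbered 12 of 13 with at least 20 clonotypes, 7 of 18 per lineage and 7 of 9 without single-copy clonotypes, where fewer genes could be tested. Base changes had 0 calls among clonotypes of 1 isotype in both tables, where G to T turned to 0.12, and 1 without single-copy clonotypes; the cause was not tested. IGHJ2 turned to -0.599 without replicate 3, -0.203 without replicate 4, -0.286 without single-copy clonotypes, -2.86 weighted by copies and -1.32 per lineage. IGHJ3 turned to 0.796 without replicate 4, 7.78 weighted by copies and 1.24 per lineage. The share of transitions turned to 0.0556 without replicate 2.

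With each replicate left out in turn, V mutation ran from -1.45 to -1.28, the unmutated share from 13.1 to 17.3, CDR3 length from 0.174 to 0.326, replacement per silent mismatch from -0.21 to -0.10, distinct clonotypes from -632 to -139 and the 10 largest from 9.12 to 21.9. IGHJ2 ran from -0.599 to 5.76, IGHJ3 from -3.34 to 0.796 and transitions from -0.575 to 0.0556. Calls ran from 15 of 26 to 26 of 48 (without replicate 1) for mutation by V gene, 0 to 3 for base changes, 0 to 2 for CDR3 lengths and 0 to 1 for amino acids, and stayed at 0 for V genes. They also stayed at 0 for V families and J genes, where the paired test could not pass. With 4 replicates no single value can pass 0.05 in the paired test, and replicate 1 had only 926 IgG2 clonotypes. Chosen after seeing the data were the alternatives on clonotypes of 1 isotype, on positions and regions, on each distinct sequence, on lineages for the unmutated share, mutation by V gene and clone size, and on 1 technical table for measures other than V mutation and distinct clonotypes. So were the measures at 100 copies or more, weighted by copies, by CDR2 and framework 3, at hotspots, at A or T, of transitions and of the largest clonotype.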
